A study of Rattus norvegicus with 6 samples.

Results

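On arrays of rat pancreatic islet RNA, 93 of 39727 probes for PIWI-interacting RNAs (piRNAs) were well above background on all 3 adult arrays and on none of the 3 arrays from pups at postnatal day 10 (P10). That is 0.235% of the probes without an outlier mark, and it counts the members themselves. They were chosen by the scanner software's own detection flag, together with the absence of any outlier mark on all 6 arrays. In adult islets 48 of the 93 had a mean signal below 10 scanner units, where the lowest detected signals lay between 5.46 and 6.03, and single spots reached 33.5. All 93 carried a weaker but significant signal on P10 1, the brightest of the arrays, whereas 67 did so on P10 2 and 77 on P10 3.

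The study asked which piRNAs differ between adult islets and those of newborn rats, in which the insulin-secreting beta cells have yet to mature. RNA was taken from islets of 10-day-old pups, with 2 pups pooled in each of 3 P10 samples, and from islets of 3 single adults of 3 months. Total RNA was labelled with the dye Cy3 at its 3′ end by RNA ligase, and each array read 1 sample. The labels give no strain or sex.

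As background, piRNAs are small RNAs that are bound by the PIWI branch of the Argonaute proteins. They are best known from the germline, where they guide the silencing of transposons, and their 3′ end is methylated. Outside the germline their levels are generally low, and many sequences catalogued as piRNAs overlap fragments of other small RNAs such as tRNAs and snoRNAs. Any labelled RNA that pairs with a probe adds to its signal, and which RNA bound was not measured here. The probes are named by their piRNA database entries (DQ followed by digits). Their sequences, genomic positions and target RNAs were not analysed here.

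Across the arrays between 10964 and 14598 piRNA probes were well above background, which is between 27.6% and 36.7% of them, and no spot was saturated. The sample labels name no slide, so arrays that share a scan identifier in the scanner headers were taken as 1 slide. Of the 2 slides inferred in this way, one carried Adult 1 together with every P10 array (slide 1). The other carried the remaining adult arrays (slide 2), so slide and age overlap in part. The 75th percentile of signal over the 8874 probes detected on all 6 arrays was 175 in P10 1 and between 95.7 and 140 in the other 5, so P10 1 was the brightest array. None of the 9 endocrine, 5 acinar, 2 ductal, 3 endothelial and stromal or 3 blood and immune marker genes looked for had a probe, nor did any of 13 genes of the piRNA pathway. The make-up of the islet preparations could therefore not be checked, and in whole islets fewer cells of a type and less RNA per cell cannot be told apart.

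Signals are given below as the processed signal, which is the brightness of a spot in scanner units after subtraction of the local background. The brightness of different probes does not compare amounts of different RNAs and serves here to place each probe relative to the detection limit. The lowest signal that counted as well above background was 5.94, 5.52 and 5.82 on the P10 arrays and 5.46, 6.03 and 5.73 on the adult arrays, in the order of their numbers. Because the flag also depends on the background of each spot, some undetected spots reached up to 8.63.

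In adult islets the 93 probes were dim. Their signals ran from 5.58 to 33.5 in Adult 1 with a median of 9.03, from 6.18 to 27.8 in Adult 2 with a median of 9.45, and from 6.18 to 33.3 in Adult 3 with a median of 10.5. The mean of the 3 adult signals was below 10 in 48 of the 93 and above 20 in 2 of them. In 21 probes the signal reached 10 on every adult array. By comparison the 8874 probes detected on all 6 arrays had medians of 47.0, 34.9 and 33.1 on the same adult arrays.

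On the P10 arrays the same probes were not well above background, by the rule. A spot not significantly above background holds a small value close to its error estimate in place of a measured signal. The values ran from 1.44 to 8.06 in P10 1 with a median of 5.20, from 1.099 to 5.67 in P10 2 with a median of 2.63, and from 1.18 to 6.28 in P10 3 with a median of 3.35. P10 1 was thus the array on which the adult-only probes came nearest to detection, and it was the highest of the P10 arrays in 70 of the 93, or in 38 once each array was divided by its own 75th percentile.

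The scanner software also sets a weaker flag, for a signal significantly above the local background, which a spot can carry without being well above it. On P10 1 this flag was set for 93 of 93 probes, on P10 2 for 67 and on P10 3 for 77. In 62 probes it was set on all 3 P10 arrays, in 20 on 2 of them and in 11 on 1, and in 0 on none. Over all piRNA probes that were not well above background, the weaker flag was set for 40.8% on P10 1, 34.0% on P10 2 and 37.5% on P10 3. Applying the adult-only rule to the weaker flag selected 127 probes, of which 0 belonged to the 93.

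Because P10 signals were below detection, an adult over P10 ratio can only be bounded. For each probe the mean adult level was set against the mean P10 level, in which each P10 array took the higher of its lowest detected signal and the probe's own signal, on a log2 scale after division by each array's 75th percentile. By this bound the adult level was at least 1.90-fold higher by the median over the 93 probes, with single bounds between 1.30 and 3.75. The rule asked for detected adult and undetected P10 spots, so the choice of members favours bounds above 1. The limit is also not sharp, since undetected spots reached 8.47, 7.08 and 7.03 on P10 1, P10 2 and P10 3. The bound reached 2-fold in 42 probes, 3-fold in 14 and 4-fold in 0. With the background left uncorrected, or corrected by normexp (a model of background plus signal), the medians were 1.39 and 1.48 and 0 probes reached 2-fold. Single bounds then lay between 1.16 and 1.92 uncorrected and between 1.36 and 1.74 with normexp.

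Raw signals separated the ages in most of the probes. In 91 of the 93 the lowest adult signal lay above the highest P10 signal. The 2 exceptions, named for their small number after their values were seen, were DQ603287 and DQ752687. After scaling, the ages overlapped in 7 probes. These separations are what the choice of members favours, and they carry no test. The same counts were not made over other probes, so no background share stands beside them.

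DQ745798 had the highest adult level of the set and the largest bound. Its signals were 15.8, 16.3 and 29.7 in Adult 1, Adult 2 and Adult 3, against 6.94, 2.98 and 1.73 in P10 1, P10 2 and P10 3. The adult mean was 20.6 ± 7.90 (SD, n = 3), and the bound was 3.75-fold. It was 1.67 with normexp, 1.74 without background correction and 2.86 without Adult 3. Adult 3 was the high array, and every P10 value lay below the lowest adult value.

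DQ612900 and DQ766464 were the next in size, and both had P10 1 standing above the other P10 arrays. DQ612900 gave 10.4, 19.0 and 32.3 in the adult arrays and 6.08, 1.12 and 1.19 in the P10 arrays, each in the order of their numbers. DQ766464 gave 14.4, 19.5 and 22.5 against 5.89, 1.21 and 1.33. Both were significantly above background on P10 1 only, and their bounds were 3.70-fold and 3.71-fold. With normexp these were 1.74 and 1.72, and without background correction 1.92 and 1.86.

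DQ614690 combined a large bound with close agreement between the adult arrays. It gave 20.3, 17.2 and 16.4 in the adult arrays, with a mean of 18.0 ± 2.08 (SD, n = 3), and 4.65, 1.21 and 1.31 in the P10 arrays. Its bound was 3.59-fold, or 1.61 with normexp and 1.80 without background correction. Its scaled adult levels had an SD of 0.08 on the log2 scale. The median SD was 0.45 over the 93 probes and 0.34 over all probes detected on every adult array.

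The other bright members leaned on single adult arrays. DQ612161 gave 13.2, 17.2 and 24.5 in the adult arrays, highest in Adult 3, with P10 signals of 6.24, 1.51 and 3.19. DQ612130 gave 29.8, 14.0 and 12.3, DQ742408 gave 28.3, 12.4 and 13.7, and DQ753113 gave 31.8, 15.3 and 10.9, all highest in Adult 1. DQ754933, one of the 3 probes with the smallest p in the model described further on, gave 33.5 in Adult 1 and 11.3 in both other adult arrays, against 2.82, 1.32 and 1.38 in the P10 arrays. Their bounds lay between 3.26 and 3.50. With normexp they lay between 1.455 and 1.59, and without background correction between 1.56 and 1.87. Without Adult 1 the bounds of the probes highest there lay between 2.50 and 2.90. Without Adult 3 that of DQ612161 was 2.78.

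DQ749854, another of the 3 probes with the smallest p in the model, was of moderate brightness. It gave 14.7, 8.92 and 12.5 in the adult arrays (mean 12.0 ± 2.91, SD, n = 3) and 1.44, 1.14 and 1.24 in the P10 arrays. Its P10 values lay far below the detection limit and the one in P10 2 was not significantly above background, so that only the bound of 2.37-fold can be given, which is smaller than that of DQ745798.

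At the dim end the probes barely cleared the limit in adults. DQ746156 gave 6.10, 6.28 and 7.06 in the adult arrays and 4.83, 3.59 and 5.15 in the P10 arrays, the smallest bound of the set at 1.30-fold. DQ752687 gave 5.58, 8.27 and 6.18 in the adult arrays and 6.11, 5.12 and 5.55 in the P10 arrays, so that its signal in Adult 1 lay below that in P10 1. DQ611219 gave 5.66, 8.65 and 6.20 against 4.78, 3.11 and 2.55, and DQ751702 gave 7.31, 6.63 and 6.90 against 4.53, 3.88 and 5.51. For these 4 probes the adult and P10 signals differ by little more than a few scanner units.

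The adult arrays differed most in DQ603735, DQ608098 and DQ761935. Differences between animals, slides and single spots cannot be told apart here. DQ603735 gave 10.1, 7.08 and 33.3 in the adult arrays, and DQ608098 gave 5.81, 8.01 and 24.0, so that Adult 3 set both. Without Adult 3 their bounds moved from 2.64 to 1.56 and from 2.08 to 1.28. DQ761935 gave 10.8, 27.8 and 6.59, so that Adult 2 set it, and its bound moved from 2.52 to 1.64 without that array. The most even members beside DQ614690 were DQ765694, with 12.8, 9.03 and 9.12, and DQ602646, with 8.78, 7.63 and 6.71, whose scaled adult levels had SDs of 0.08 on the log2 scale.

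Over the whole set, the highest adult signal fell on Adult 3 in 48 probes, on Adult 1 in 26 and on Adult 2 in 19. After scaling, Adult 3 was highest in 63, Adult 2 in 19 and Adult 1 in 11. The ratio of the highest to the lowest adult signal of a probe had a median of 1.55 and ranged from 1.099 to 4.70. Across the 93 probes, scaled levels correlated at r = 0.44 between Adult 1 and Adult 2, 0.28 between Adult 1 and Adult 3 and 0.45 between Adult 2 and Adult 3. These are correlations across probes of a narrow range of brightness, which are not independent replicates, and Adult 2 and Adult 3 share a slide.

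Within slide 1, which held Adult 1 and all P10 arrays, the bounds were smaller. With Adult 1 as the only adult array the median bound was 1.46-fold, from 0.914 to 5.54, and 3 probes fell below 1 and so had no bound. With Adult 2 and Adult 3, from the other slide, the median was 2.22-fold. Adult 1 lay above every P10 signal in 92 of the 93 probes, or in 86 after scaling, which the choice of members favours. These counts were not made over other probes. Slide moved with the size of the bound, and its part in it was not tested.

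The values on either side of the rule were close. The 3 members whose P10 signal came nearest to or most exceeded the lowest detected signal were DQ738893, DQ615805 and DQ619582, with signals of 8.06, 7.66 and 7.60 in P10 1 that did not count as well above background. Their adult signals were 12.1, 10.1 and 12.7, then 9.92, 14.0 and 9.23, then 8.05, 10.8 and 9.70 in Adult 1, Adult 2 and Adult 3. Just outside the rule, DQ619368 counted as detected in P10 3 at 5.97, and DQ735741 and DQ763310 in P10 1 at 6.01 and 6.04. Signals that kept a probe out were thus lower than signals that let one in.

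On the adult side, DQ747908 and DQ740033 missed the rule with signals of 7.77 and 7.52 in Adult 2, and DQ627734 with 6.97 in Adult 1. The dimmest member signals on those arrays were 6.18 and 5.58. The edge of the set therefore followed the flag of each spot and not a fixed brightness.

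P10 1 decided the size of the set more than any other array. Of the probes detected on all adult arrays without an outlier mark, 8874 were detected on 3 P10 arrays, 502 on 2, 312 on 1 and 93 on 0. In 268 of the 312 the single P10 array was P10 1, against 14 for P10 2 and 30 for P10 3. Those 268 probes had median signals of 11.3 in P10 1, 3.09 in P10 2 and 4.34 in P10 3, and of 13.4, 11.7 and 13.1 in the adult arrays. On P10 2 and P10 3 they were undetected, as the 93 were, while the median in P10 1 came near those in the adult arrays. These are unscaled signals, and P10 1 was the brightest array. Its 75th percentile was 175, against 139, 108 and 101 on Adult 1, Adult 2 and Adult 3.

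Each array left out of the choice gave a reading that the choice had not used. The rule on the other 5 arrays selected 361 probes without P10 1, of which 74.2% were detected on P10 1. Without P10 2 it selected 107, of which 13.1% were detected there, and without P10 3 it selected 123, of which 24.4% were. Over all piRNA probes without an outlier mark, 36.7%, 30.1% and 35.8% were detected on P10 1, P10 2 and P10 3. The shares of the chosen probes lay below these on P10 2 and P10 3 and above on P10 1. Of all probes detected on the 3 adult arrays, most of them brighter, 92.3% to 98.3% were detected on a given P10 array.

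Leaving out adult arrays gave the same kind of reading from the other side. Of 135 probes chosen without Adult 1, 68.9% were detected there. Of 221 chosen without Adult 2 it was 42.1%, and of 132 chosen without Adult 3 it was 70.5%. In each case the probes detected there were the 93 members. Over all piRNA probes without an outlier mark, 35.7%, 27.4% and 30.3% were detected on Adult 1, Adult 2 and Adult 3. Probes detected on the other 2 adult arrays whatever their P10 state were found on the array left out in 98.2%, 92.0% and 94.4%. These reference probes are mostly brighter, so the comparison describes the shares and does not test them.

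When an array of each age was left out together, 9 such pairs were possible and they share arrays. Probes chosen on the other 4 arrays were detected on the adult array left out in 43.1% to 83.2%. On the P10 array left out, between 63.3% and 71.0% were detected where it was P10 1, between 10.9% and 14.3% where it was P10 2, and between 21.5% and 23.7% where it was P10 3. With both arrays numbered 1 left out, the rule selected 434 probes, and the 93 were among them.

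Among the 9781 probes detected on all adult arrays, adult-only detection was found at the dimmer levels. Of those with a mean adult level below -4 on the log2 scale relative to the 75th percentile, 4 of 40 were adult-only. Between -4 and -3.5 it was 48 of 725 (6.62%), between -3.5 and -3 it was 25 of 1314 (1.90%), and between -3 and -2.5 it was 16 of 1338 (1.20%). Above -2.5 it was 0 of 1126 up to -2 and 0 of 5238 beyond. The share detected on all 3 P10 arrays rose over the same steps, from 45% below -4 to 57.8%, 79.5%, 90.2%, 95.0% and 97.7%.

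The opposite pattern, detection on all P10 arrays and no adult array, was met by 185 probes. In these the medians were 10.0, 8.73 and 13.9 in P10 1, P10 2 and P10 3, against 4.78, 2.99 and 2.94 on the adult arrays. Their mean P10 signal reached 55.6, whereas the mean adult signal of the 93 did not exceed 20.6. The 2 sets share all 6 arrays, and the difference in their size was not tested.

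All 93 probes entered the limma model that was fitted over 11900 piRNA probes, and 47 were called higher and 0 lower in adult islets at a Benjamini-Hochberg adjusted p below 0.05. Over all tested probes 4.17% were called higher. Since the members were chosen on the same contrast, their count is a description and supports nothing. With the slide as a block, with the replicate number as a block, and with normexp, 0 members were called, and leaving out P10 2, P10 3, Adult 2 or Adult 3 also left 0 (limma). Leaving out any of those arrays also left 0 calls over all tested probes (limma). Without P10 1, 52 members and 1030 of 11889 tested probes were called higher (limma). Without Adult 1 it was 69 members and 889 of 11899 tested probes (limma). An unadjusted p below 0.05 was reached by 89 members in the fit with equal weights, by 53 with the slide block, by 85 with the replicate block and by 1 with normexp (limma), and without P10 2, P10 3, Adult 2 or Adult 3 by 88, 74, 73 and 72 (limma). Over all tested probes 1648 of 11900 were higher in adults at that p with equal weights (limma). It was 831 of 11883 with the slide block, 1497 of 11900 with the replicate block and 630 of 11900 with normexp (limma). Without P10 2, P10 3, Adult 2 or Adult 3 it was 1389 of 11890, 1240 of 11896, 1233 of 11900 and 1153 of 11900. The choice of members favours their counts here too.

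All 93 probes are present in the authors' deposited value table, which holds log2 values normalized between arrays. On the P10 side 42, 78 and 72 of them sat at the lowest value of the column in P10 1, P10 2 and P10 3, and 0 did so in any adult column. The difference of group means in that table ran from 0.43 to 2.07 with a median of 1.04 on the log2 scale, so a shared lowest value sets much of the P10 side. The authors' deposited table of changes lists 43 of the 93, all as up in adult, where 1056 of the 18540 probes with a value (5.7%) are listed as up in the authors' deposited table.

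The folds of these 43 in the authors' deposited table lie between 2.02 and 4.20 with a median of 2.84, against a median of 3.46 for all probes listed there as up. DQ745798 has the largest of them, and the authors' deposited table gives DQ766464 and DQ612900 as 4.04-fold each. Of the 47 members called in the model, 36 are listed. The deposited table comes from the same arrays and is no separate evidence.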

How the data were processed

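Small RNAs were measured on 6 arrays, 1 per sample. The deposited intensity of each spot is background-subtracted output of Agilent Feature Extraction 11.0.1.1 without scaling between arrays, per the file headers. In the deposited signal, spots not significantly above background hold a small value close to their error estimate, as tested on the files. The deposited value table holds log2 values, and how the authors normalized them is not stated in any source at hand. In the authors' deposited table of changes, per the file headers, each p-value comes from an unpaired t-test and each fold compares the means of both groups.

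The members and lists were chosen with earlier results of these data known. A level is the log2 processed signal less each array's 75th percentile over piRNA probes detected on all 6 arrays. The limma fit (version 3.58.1, R 4.3.3) took probes detected on every array of either age (lmFit and eBayes, two-sided, Benjamini-Hochberg adjustment over piRNA probes), and the fit was checked on simulated data. Spots with an outlier mark were left missing. Adult samples came from single animals and P10 samples from separate pools. The number of arrays limits the precision. Named probes were the 8 with the highest and the 4 with the lowest mean adult level, the 6 largest bounds, the 3 most and 3 least even between adults, the 3 smallest p, and the nearest 3 on each side of the rule. Consecutive entries were also to be named, and there were 0. Normexp used the median signal and an offset of 50, since no mean signal is among the columns used here. The replicate numbers were checked by the correlation of deviations from the age means, which was -0.04, 0.24 and -0.23 for numbers 1, 2 and 3. The highest correlation, 0.31, was between P10 3 and Adult 1. Deviations from a mean of 3 arrays depend on each other, so this check cannot decide whether the numbers pair the samples. The main fit left them unpaired.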

Additional observations from a re-analysis of the deposited data

How the results depend on the processing

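Leaving out both arrays numbered 1 was chosen after seeing the data, as were the bounds of single probes on slide 1. The number of adult-only probes, 93, was 9 when every adult signal had to be at least 2 times the lowest detected signal, and 434 without both arrays numbered 1. With 1 array left out it lay between 107 and 361 (361 without P10 1, 221 without Adult 2), and ignoring outlier marks left 93. The median adult level, -3.58, was -0.047 with the 75th percentile over all probes, -0.88 with normexp and -2.14 without background correction, which are different reference points by construction, and lay between -3.72 and -3.35 with 1 adult array left out. The median bound, 1.90-fold, was 1.48 with normexp, 1.39 without correction and 1.46 on slide 1 alone, lay between 1.70 and 2.22 with 1 array left out, and was 2.06, 2.04 and 2.15 with the other scalings. On slide 1 alone the bounds of DQ752687, DQ611219 and DQ608098 turned to 0.914, 0.936 and 0.961. There too the bounds of DQ745798, DQ612900, DQ766464 and DQ612161 were 2.47, 1.71, 2.39 and 2.15, that of DQ603735 was 1.65, and those of DQ753113 and DQ754933 were 5.02 and 5.54. The other named bounds stayed above 1 under every alternative run.

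The number of members called higher, 47 (limma), was 7 with cyclic loess, 2 without background correction, 16 with a floor at the lowest detected signal, 89 with array weights and 71 without both arrays numbered 1. Over all 11900 tested probes 496 were called higher in the main fit, 18 with cyclic loess, 529 without background correction and 594 with the floor. It was 1853 with array weights, and 1493 of 11888 without both arrays numbered 1. The number of members called was 0 with normexp, with looser filters on dim probes, with the slide or the replicate number as a block, and on the deposited values with limma or the methods' t-test after adjustment. With looser filters 88 (no filter) and 83 (detected on at least 1 array) had an unadjusted p below 0.05, and on the deposited values 84 (limma) and 75 (t-test). Over all probes 2427 of 39713 (no filter) and 1697 of 18526 (at least 1 array) were higher at that p (limma). On the deposited values it was 1944 (limma) and 1687 (t-test) of 18540. With 1 array left out the number of members called lay between 0 and 69. The calls over all piRNA probes, 703 (496 higher and 207 lower), came to 27 with cyclic loess, 81 with normexp (22 higher and 59 lower), 4258 with array weights (1853 higher) and 3624 without both arrays numbered 1. They came to 1 with the slide as a block, 0 with the replicate block, where 3175 had an unadjusted p below 0.05 (limma), and 0 with either looser filter or with limma on the deposited values. The methods' t-test on the deposited values gave 1791 at its own threshold and 1 after adjustment. With 1 array left out the calls lay between 0 and 2066. With normexp the median difference of all tested probes was 0.31 on the log2 scale. Except where stated, the cause was not tested.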

Other observations

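Among the 93 probes 0 had a consecutive entry in the set, and 87 had a neighbouring entry on the array. Members make up 0.234% of the piRNA probes, so a count of 0 says little. Of the 128 neighbouring probes, 49 were detected on no array, 29 on all 6 and 50 on between 1 and 5 arrays. That is 38.3% on no array and 22.7% on all 6, against 53.3% and 22.3% of all piRNA probes, as a description without a test.

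The 93 probes were spread over the entry numbers and over the array surface. In the lower block of entries (DQ601959 to DQ698066) lay 41 of them (44.1%), where 38.2% of all piRNA probes and 42.2% of those detected on every adult array lie. In the upper rows of the array lay 41 and in the left columns 55, and 4 had another member within 2 rows and columns. The median local background at their spots was 20, 21 and 20 on the P10 arrays and 20, 19 and 19 on the adult arrays, in the order of their numbers.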
